A study of Mus musculus with 8 samples.

Results

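The genes described here are 10 interferon-induced antiviral effectors, taken by symbol from a list of gene names: Mx1, Mx2, Bst2, Rsad2, Cmpk2, Xaf1, Ifi27, Ifi35, Ifi44 and Tor3a. They and the gene lists further below were chosen with earlier results of these data known. Shares and medians over all tested genes set beside them are therefore description only. All 10 were among the 29079 genes of the count table, and all 10 were among the 14923 that passed the filter on low counts. They were measured by mRNA sequencing in MC38 cells, derived from a colon adenocarcinoma of a mouse, with 2 libraries in each of 4 groups. WT is the CRISPR control, and Piezo2 KO was made with 1 guide RNA that targets Piezo2, a mechanically gated ion channel. Each line was either left without irradiation (non-IR) or given 30 Gy of X-rays in 1 fraction (IR), with RNA taken 60 hours later in the irradiated groups. No source used here says whether the edited line is 1 clone, or whether replicate libraries were grown apart.

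Interferons are secreted proteins that a cell makes when it senses viral or misplaced nucleic acid. They bind receptors that activate the kinases Jak1 and Tyk2. A transcription factor complex that holds Stat2 and Irf9 then binds a DNA motif, the interferon-stimulated response element, upstream of effector genes. The effectors then act on different steps of a viral life cycle. Mx1 and Mx2 are dynamin-like GTPases; in mice with intact alleles Mx1 acts in the nucleus against influenza virus and Mx2 in the cytoplasm. Bst2, or tetherin, holds budding virions at the cell surface. Rsad2, or viperin, is a radical SAM enzyme that turns CTP into a chain terminator of viral polymerases, and Cmpk2 is a mitochondrial nucleotide kinase whose gene lies beside it. Xaf1 binds and opposes the caspase inhibitor Xiap, Ifi27 is a small hydrophobic membrane protein, Ifi35 is a partner of Nmi, and Tor3a is a torsin ATPase of the endoplasmic reticulum.

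The genes lie on 6 chromosomes of the mm10 (GRCm38) genome, in GENCODE M21 coordinates. Mx1 (chr16:97447035-97462907, minus strand) and Mx2 (chr16:97535308-97560900, plus strand) are neighbours. Rsad2 (chr12:26442746-26456452, minus strand) and Cmpk2 (chr12:26469204-26479837, plus strand) point away from each other with starts 12752 bases apart. Ifi27 (chr12:103434211-103440239) is farther along the same chromosome, and Xaf1 (chr11:72301629-72313733) and Ifi35 (chr11:101448407-101458698) share another. Bst2 is at chr8:71534255-71537456, Ifi44 at chr3:151730922-151749960 and Tor3a at chr1:156653617-156674356. GENCODE calls Mx2 a polymorphic pseudogene and the other 9 protein coding, while RefSeq lists both Mx1 and Mx2 of the C57BL/6J reference as transcribed pseudogenes. MC38 comes from a C57BL/6 mouse, and that strain carries defective alleles of both Mx genes, so the reads below measure transcripts and not functional Mx protein. Among annotated genes only Gm11626, an antisense gene, shared exonic bases with a member, namely 290 of the 1727 of Ifi35. It held at most 5 reads in any library.

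RefSeq promoters (GRCm38.p6), each running from 250 bases before to 50 after the gene start, were at hand for 6 of the 10 genes: Bst2, Rsad2, Cmpk2, Xaf1, Ifi35 and Ifi44. They are shown because the groups below differ in genes that respond together. Both strands were searched for the core of the interferon-stimulated response element, GAAA and GAAA with 2 bases of any kind between, which Bst2 and Rsad2 held and which 3.44 percent of the 32851 promoters in the table held. A form with 1 base between, GAAANGAAA, was added after the promoters had been seen. Xaf1, Ifi35 and Ifi44 held it, as did 3.17 percent of all promoters, and 1 or the other form was in 5 of the 6 against 6.27 percent of all. These letters were not in the Cmpk2 window. The gamma-activated site TTCNNNGAA was in the Bst2 and Ifi35 windows and in 8.3 percent of all promoters. Capitals mark the matched letters, 5′ to 3′ on the gene's strand, in the stretches around them. A match is a description of the sequence and not evidence of binding.
Bst2 promoter (chr8:71537548-71537647, minus strand): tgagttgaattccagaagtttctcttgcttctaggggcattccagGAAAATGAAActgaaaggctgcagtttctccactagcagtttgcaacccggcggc
Rsad2 promoter (chr12:26456518-26456617, minus strand): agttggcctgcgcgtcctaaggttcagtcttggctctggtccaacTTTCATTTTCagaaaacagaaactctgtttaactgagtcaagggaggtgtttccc
Ifi44 promoter (chr3:151749905-151750003, minus strand): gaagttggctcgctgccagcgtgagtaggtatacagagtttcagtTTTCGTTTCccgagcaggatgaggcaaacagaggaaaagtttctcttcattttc
Xaf1 promoter (chr11:72301594-72301678, plus strand): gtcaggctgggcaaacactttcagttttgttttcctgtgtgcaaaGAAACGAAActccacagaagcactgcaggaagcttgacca
Ifi35 promoter (chr11:101448380-101448461, plus strand): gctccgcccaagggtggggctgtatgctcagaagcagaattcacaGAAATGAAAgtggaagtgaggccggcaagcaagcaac
Counted from the RefSeq start, the matches began 130 bases before it in Bst2, 120 before in Rsad2 and 48 before in Ifi44. In Xaf1 and Ifi35 they began 10 and 13 bases after it. The GENCODE start of Ifi44 lies farther out than that of RefSeq, so its match falls just inside the GENCODE coordinates given above. In Bst2 a second match, overlapping the first, began 124 bases before the start.

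Libraries held 10971004 to 19887180 counts. Piezo2 had at most 12 reads in any library, the highest counts being 9 for WT and 12 for KO after irradiation, so its mRNA does not check the edit. The labels call the cells epithelial. Of 10 epithelial markers 7 were in the table, and among them Cdh1 reached 38.1 to 79.3 counts per 1000000 total counts (CPM), while Krt18 had at most 2 reads in any library and Krt8 at most 20. Fibroblast markers, most of them Col1a2 reads, rose from 822 to 900 CPM to 1084 to 1187 CPM with irradiation in WT and from 1077 to 1111 CPM to 1592 to 1762 CPM in KO. Of the 5 tested, Dcn, Col1a1, Col1a2 and Pdgfrb were called higher in irradiated KO than in irradiated WT. Pdgfra was not called there (log2 -0.08 ± 0.08). With irradiation its log2 change was 0.82 ± 0.08 in WT, called higher, and -0.32 ± 0.08 in KO, called lower. Lum and Thy1 had at most 5 reads in any library. Dcn, a matrix proteoglycan, was 21.7-fold higher after irradiation in WT and 6.62-fold in KO. T and NK cell markers summed to at most 0.465 CPM. Macrophage markers moved with irradiation, from 3.68 to 3.81 CPM to 38.1 to 40.2 CPM in WT and from 7.2 to 7.94 CPM to 55.7 to 64.6 CPM in KO. Nearly all of that was Cd68, a lysosomal protein, while 7 of the 10 markers had no more than 10 reads in any library, and C1qa, Tyrobp and Itgam no more than 2. Ptprc and Lyz2 were also called higher with irradiation in both lines, at few reads. Ptprc had 0 and 2 reads and then 20 and 20 in WT, and 0 and 0 and then 6 and 7 in KO. Lyz2 had 1 and 0 and then 4 and 14 in WT, and 2 and 0 and then 13 and 13 in KO. Dendritic cell markers summed to 59.7 to 63.9 and 91.5 to 92.9 CPM in WT and to 86.7 to 101 and 161 to 166 CPM in KO, without and with irradiation, nearly all of it Tcf4. Tcf4 and Xcr1 were called higher with irradiation in both lines. Xcr1 had 8 and 1 reads and then 50 and 50 in WT, and 0 and 0 and then 28 and 26 in KO. Endothelial markers summed to 1.72 to 13.3 CPM and, like the dendritic cell sum, were highest in irradiated KO. Among them Tek had 6.38 and 5.93 CPM in non-irradiated KO, 5.17 and 7.91 in irradiated KO and at most 0.755 in WT. Between the irradiated lines Pecam1 was not called (log2 -0.15 ± 0.30), while Cdh5 was higher in KO (2.19 ± 0.57). The part of these markers in the results below was not tested.

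What did irradiation do to these genes in the WT line? All 10 rose. The changes ran from less than a doubling for Tor3a to an induction from 0 reads for Mx2. The 10 genes summed went from 108 and 104 CPM in the non-irradiated libraries to 474 and 389 CPM after 30 Gy.

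The Mx genes went from near silence to clear expression. Mx1 had 0.771 and 0.328 CPM in non-irradiated WT and 38.8 and 21.6 CPM in irradiated WT. Mx2 had no read in either non-irradiated WT library and 11.2 and 11.2 CPM in the irradiated ones, which are 152 and 192 reads. Neither gene's groups overlapped. Mx1 was 52-fold higher (95 percent exact Clopper-Pearson interval 32.7 to 88.2, from 898 reads against 18), and its log2 change was 5.66 ± 0.45 (SE, 2 libraries per group, edgeR adjusted p = 0.000104). Against the 3 reads over the group that a count of 0 allows, Mx2 was at least 120-fold higher (edgeR adjusted p = 3.11e-05). The log2 change of Mx1 was 5.18 without irradiated WT replicate 1 and 6.42 without non-irradiated WT replicate 1. These intervals and floors cover counting error only.

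The pair that makes and feeds the chain terminator behaved alike. Rsad2 had 0.297 and 0.328 CPM without irradiation and 28.3 and 15.5 CPM after it, and its log2 change was 6.02 ± 0.49 (edgeR adjusted p = 0.000112). Its neighbour Cmpk2 had 0.534 and 0.0657 CPM, which are 9 reads and 1 read, and then 19.6 and 10.2 CPM. In both genes every irradiated library lay above every non-irradiated one, and irradiated replicate 1 stood nearly 2-fold above replicate 2, with ratios of 1.83 for Rsad2 and 1.92 for Cmpk2. The log2 change of Cmpk2 was 5.46 ± 0.54 (edgeR adjusted p = 0.000263), or 45.9-fold (24.7 to 96.3). It was 4.69 without non-irradiated WT replicate 2 and 7.58 without replicate 1.

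Ifi44, an interferon-induced cytoplasmic protein, had 3 reads and 0 reads in the non-irradiated WT libraries and 372 and 224 after irradiation. Those counts are a 207-fold difference with a counting interval of 70.5 to 1007, and the log2 change was 7.57 ± 0.75 (edgeR adjusted p = 0.000259). Without non-irradiated WT replicate 2 the log2 change was 6.68, and without replicate 1 no WT read is left to form a ratio. Xaf1 went from 1.54 and 1.77 to 36.7 and 30.5 CPM, a log2 change of 4.28 ± 0.18 (edgeR adjusted p = 9.32e-06). It was the most precisely measured of the genes that started low.

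The remaining 4 genes were already expressed without irradiation and changed less. Bst2 had 21.8 and 21.2 CPM without irradiation and 86.4 and 61.1 CPM after it, with a log2 change of 1.72 ± 0.18. Ifi27 had 38 and 29.5 CPM and then 134 and 132 CPM, a change of 1.92 ± 0.13. Ifi35 rose by 1.25 ± 0.22 and Tor3a by 0.78 ± 0.10. All 4 passed the test, with edgeR adjusted p-values of 0.000334, 5.84e-05, 0.00371 and 0.00077 in the order Bst2, Ifi27, Ifi35, Tor3a. For Tor3a the libraries were at 36.4 and 38.1 CPM before and 68 and 65.5 CPM after, so the groups did not overlap although the change was the smallest of the 10.

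**Figure D1:**
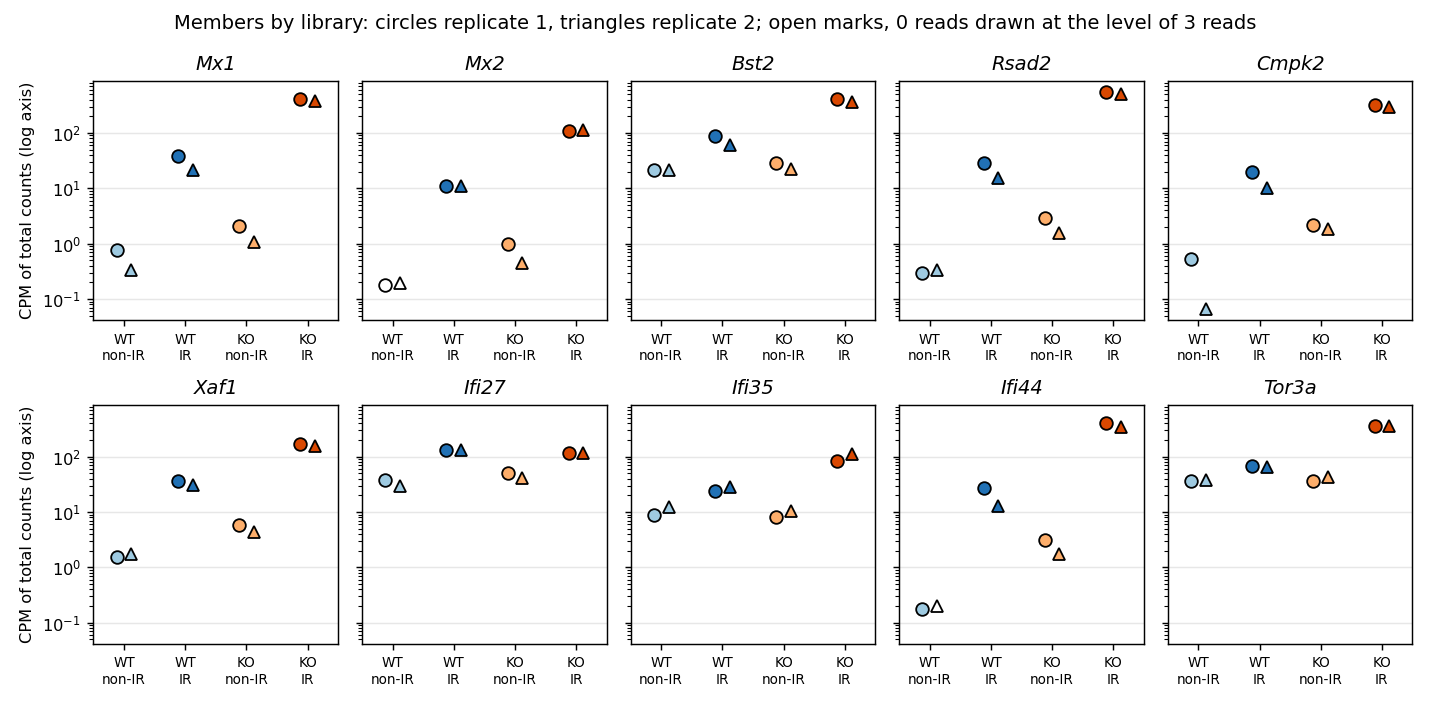
CPM (log axis) of each gene in each of the 8 libraries; circles are replicate 1, triangles replicate 2, and open marks are libraries with 0 reads, drawn at the level of 3 reads. The irradiated KO libraries of 9 genes sit above every other library, while for Ifi27 the irradiated WT libraries, at 134 and 132, sit above the irradiated KO ones, at 117 and 118.

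In WT, then, 10 of 10 members were called higher and 0 lower, where 20.4 percent of all 14923 tested genes were called higher and 18.4 percent lower (edgeR quasi-likelihood test, adjusted p under 0.05). Their median log2 change was 4.87, against 0.03 over all tested genes. The groups did not overlap in any of the 10, with both irradiated libraries above in 39.5 percent of tested genes. All 10 calls held in each of 13 alternative fits, the highest edgeR or DESeq2 adjusted p being 0.0295, for Ifi35. Of the 10, Mx2 met the low-count filter through its irradiated libraries, since only 1 of the 4 non-irradiated ones reached the filter's 0.623 CPM. Rsad2, Cmpk2 and Ifi44 lay under that level in both non-irradiated WT libraries, and Mx1 in replicate 2. In WT, Mx2, Rsad2, Cmpk2 and Ifi44 could therefore hardly have come out lower, and Mx1 had little room to. In bulk RNA, more expressing cells and more RNA per cell cannot be told apart.

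The same dose gave larger levels in the KO line. The 10 genes summed to 140 and 129 CPM without irradiation and to 2921 and 2760 CPM after it, the latter being 0.292 and 0.276 percent of all reads. All 10 rose again, 5 of them by more than 100-fold.

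Rsad2 reached the highest counts of the 10. It had 2.92 and 1.56 CPM in non-irradiated KO and 551 and 514 CPM in irradiated KO, a log2 change of 7.96 ± 0.35 (edgeR adjusted p = 3.88e-06), or 260-fold (203 to 339). Mx1 went from 2.1 and 1.06 CPM to 405 and 383 CPM, a change of 8.04 ± 0.38 (edgeR adjusted p = 5.44e-06). The irradiated KO replicates lay close together for both genes, with replicate 1 over replicate 2 at 1.07 and 1.06.

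Mx2, silent in WT before irradiation, had 1 and 0.453 CPM in non-irradiated KO, from 11 and 9 reads, and 108 and 111 CPM after irradiation. That is 169-fold (109 to 277), with a log2 change of 7.33 ± 0.22 (edgeR adjusted p = 2.35e-06). Ifi44 went from 3.1 and 1.71 CPM to 398 and 344 CPM, a log2 change of 7.33 ± 0.42. Cmpk2 went from 2.19 and 1.86 CPM to 323 and 298 CPM, a log2 change of 7.25 ± 0.37. None of these groups overlapped.

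Xaf1 rose 33.3-fold (28.3 to 39.3; edgeR adjusted p = 1.01e-06), from 5.83 and 4.42 CPM to 172 and 157 CPM. The genes with a high starting level rose on the log2 scale by 3.92 ± 0.19 (Bst2), 3.31 ± 0.23 (Ifi35), 3.13 ± 0.10 (Tor3a) and 1.33 ± 0.13 (Ifi27). Ifi27 thus had the smallest change in KO, from 50 and 41.5 CPM to 117 and 118 CPM (edgeR adjusted p = 0.00022). In KO, 10 of 10 members were called higher, against 21.1 percent of tested genes, and 0 lower, against 18.6 percent. The median log2 change was 6.12, with 0.02 over all tested genes, and all 10 calls held in each of 13 alternative fits. No gene's groups overlapped, with both irradiated libraries above in 38.5 percent of tested genes. Over both non-irradiated KO libraries Mx2 had 20 reads, Mx1 44, Cmpk2 61, Rsad2 63 and Ifi44 68. These genes therefore had little room to come out lower in KO.

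**Figure D2:**
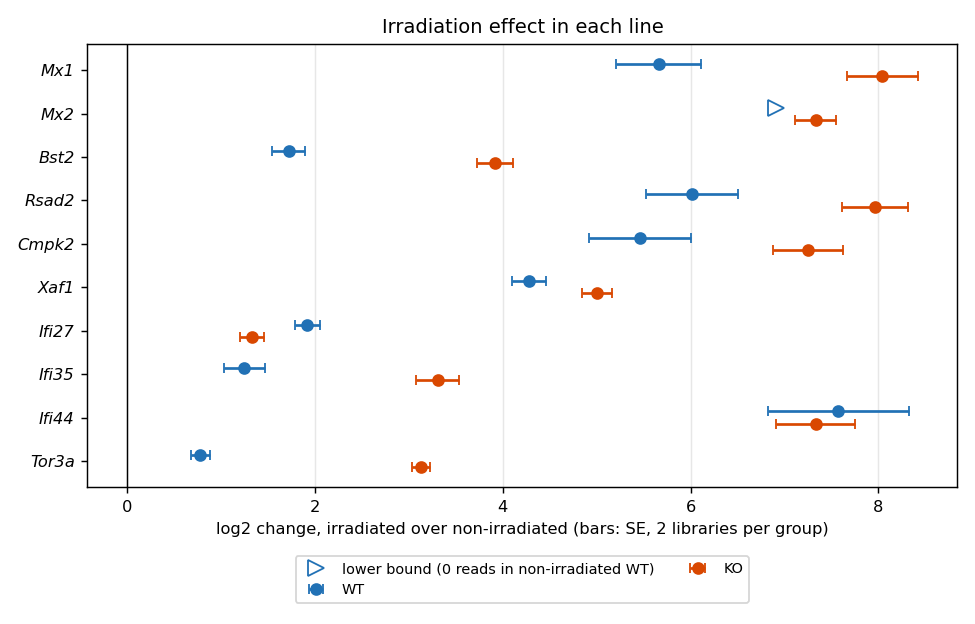
Log2 change from non-irradiated to irradiated cells for each gene, in WT (blue) and KO (orange), with bars for the SE from edgeR and 2 libraries per group; the open triangle is the lower bound for Mx2 in WT, whose non-irradiated libraries had 0 reads. Bst2, Ifi35 and Tor3a show the widest separation relative to their bars, Ifi44 overlaps between the lines, and Ifi27 has the larger change in WT.

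Were the irradiation responses of the lines different? The interaction, which is the log2 change in KO minus that in WT, was called for 3 of the 10 genes. Tor3a had 2.35 ± 0.14 (edgeR adjusted p = 0.000583), Bst2 2.20 ± 0.25 (edgeR adjusted p = 0.00512) and Ifi35 2.06 ± 0.31 (edgeR adjusted p = 0.0175). In folds, Tor3a rose 1.79-fold in WT and 8.79-fold in KO, and Bst2 3.36-fold and 15.8-fold. Of all tested genes 1.37 percent were called higher in this comparison and 0.57 percent lower. These 3 genes all started from a measurable level, 21.2 to 38.1 CPM in non-irradiated WT for Bst2 and Tor3a, and 8.78 and 12.5 CPM for Ifi35.

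Mx1, Rsad2 and Cmpk2, which started near 0, did not pass and had larger errors. Mx1 had 2.38 ± 0.88 (edgeR adjusted p = 0.32), Rsad2 1.93 ± 1.02 (edgeR adjusted p = 0.512) and Cmpk2 1.78 ± 1.07 (edgeR adjusted p = 0.587). Without non-irradiated WT replicate 1, which leaves 1 WT read, the Cmpk2 interaction was -0.35, and without replicate 2 it was 2.55. Xaf1 had 0.72 ± 0.25 and Ifi44 -0.24 ± 1.21, neither of which passed. Without 1 library the Ifi44 value ran from -3.94 to 0.64, so it has no settled direction. No difference can be read for Mx2, which rose at least 120-fold in WT and 169-fold in KO. Ifi27 was the exception in direction, with -0.59 ± 0.18 (edgeR adjusted p = 0.218). The median over the 10 was 1.86, against -0.01 over all tested genes, and it was the same with Mx2 at its bound.

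The replicate numbers were taken to pair the libraries, which no label states, so the number was also fitted as a block. With the block 5 members were called higher and 1 lower in the interaction, where 8.15 and 8.55 percent of tested genes were. Mx1 (2.38 ± 0.61, edgeR adjusted p = 0.00419) and Xaf1 (0.71 ± 0.25, edgeR adjusted p = 0.0414) joined those higher, and Ifi27 (-0.58 ± 0.10, edgeR adjusted p = 1.52e-05) was the one lower. Bst2 and Tor3a held in all 12 alternative fits, whereas Ifi35 lost its call in 6 of 8 fits that left out 1 library, with adjusted p-values of 0.0538 to 0.0818.

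Irradiated KO was next set against irradiated WT directly. In 9 of the 10 genes both KO libraries were above both WT libraries and the test passed, with both above in 30.3 percent of tested genes. In the remaining gene, Ifi27, both KO libraries were below, as in 32 percent. The largest difference was in Rsad2, 4.63 ± 0.27 on the log2 scale (edgeR adjusted p = 3.37e-05), or 25.2-fold (23.3 to 27.3). That interval covers counting error only and not the spread between libraries. Cmpk2 followed with 4.42 ± 0.29 and 21.6-fold, Ifi44 with 4.23 ± 0.33 and 19-fold, Mx1 with 3.73 ± 0.27 and 13.5-fold, and Mx2 with 3.30 ± 0.15 and 9.8-fold. The smaller differences were 2.43 ± 0.10 for Tor3a, 2.41 ± 0.17 for Bst2, 2.30 ± 0.13 for Xaf1 and 1.91 ± 0.21 for Ifi35, with edgeR adjusted p-values between 9.56e-06 and 0.000606.

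Within each replicate number the same 9 genes were higher in KO. For Rsad2 the log2 difference was 4.28 in replicate 1 and 5.06 in replicate 2, and for Tor3a 2.37 and 2.47. For Mx2 it was 3.27 and 3.31. The wider spread in Rsad2, Cmpk2, Ifi44 and Mx1 came with the irradiated WT libraries, where replicate 1 was 1.8 to 2.11 times replicate 2, while Mx2 was at 1.01 times. Called higher were 9 members, against 13.3 percent of tested genes, and 0 were called lower, against 11.4 percent. The median was 2.87, with -0.01 over all tested genes, and the 9 calls held in all 13 alternative fits.

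Ifi27 differed by -0.17 ± 0.13 between the irradiated lines (edgeR adjusted p = 0.386), within replicate numbers by -0.19 and -0.17. With the replicate block the same -0.17 ± 0.06 was called lower (edgeR adjusted p = 0.0142), in a fit that called 25.2 percent of tested genes lower. Its paralog Ifi27l2a, whose gene lies next to it, went the other way. It had 68.4 and 55.3 CPM in irradiated WT and 161 and 138 CPM in irradiated KO, a difference of 1.29 ± 0.17 (edgeR adjusted p = 0.00144), with irradiation effects of 3.01 ± 0.20 in WT and 3.04 ± 0.18 in KO. How the authors' counting treated reads that fit both paralogs is stated in no source used here, so both values are uncertain to that extent.

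KO and WT differed in some of the genes before irradiation, at low counts. The libraries did not overlap in 8 of 10, with KO above, as in 28.8 percent of tested genes. Called higher in non-irradiated KO were 5 members, Mx2, Rsad2, Cmpk2, Xaf1 and Ifi44, against 10.4 percent of tested genes, and 0 were lower, against 9.49 percent. Xaf1 was the best measured, at 1.54 and 1.77 CPM in WT and 5.83 and 4.42 CPM in KO (log2 1.59 ± 0.21, edgeR adjusted p = 0.00219). Mx2 had 0 reads in WT and 20 in KO over both libraries, at least 6.93-fold higher (edgeR adjusted p = 0.0056). Ifi44 had 3 reads against 68, a ratio of 23.6 (7.73 to 117), Rsad2 10 against 63, a ratio of 6.55 (3.34 to 14.3), and Cmpk2 10 against 61, a ratio of 6.34 (3.22 to 13.9). Their edgeR adjusted p-values were 0.0296, 0.035 and 0.0474. With so few WT reads, Mx2, Ifi44, Rsad2 and Cmpk2 could hardly have been called lower in KO.

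The other 5 genes did not pass without irradiation. Mx1 had 18 reads in WT and 44 in KO (log2 1.35 ± 0.72, edgeR adjusted p = 0.238). Ifi27 had a difference of 0.42 ± 0.13, Bst2 0.21 ± 0.18, Tor3a 0.09 ± 0.10 and Ifi35 -0.16 ± 0.23. With the replicate block Mx1, Bst2 and Ifi27 were also called higher, which made 8 members, where 21.4 percent of tested genes were. Without non-irradiated WT replicate 2 the log2 difference of Cmpk2 was 1.86 and that of Ifi44 3.58, and without replicate 1 that of Cmpk2 was 4.77. Leaving out any 1 non-irradiated library or any 1 irradiated KO library brought the 5 calls to 2 or 3, and a fit of the non-irradiated groups alone to 3. Xaf1 held in all 13 alternative fits and Mx2 in all 12 in which it was tested.

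**Figure D3:**
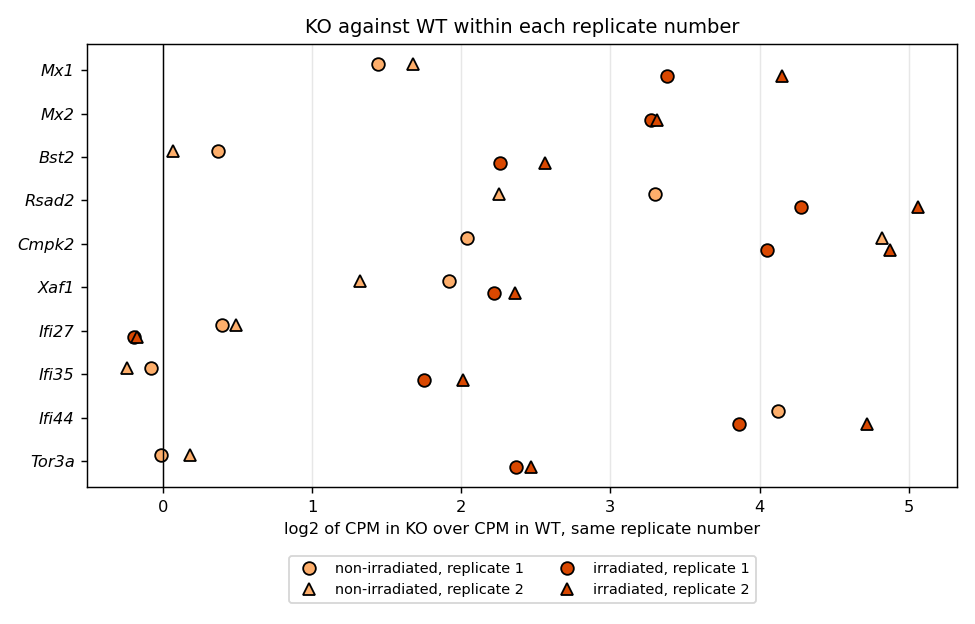
Log2 of the CPM in KO over the CPM in WT within replicate 1 (circles) and replicate 2 (triangles), without irradiation (light) and after it (dark); Mx2 without irradiation and Ifi44 in replicate 2 without irradiation are missing because WT had 0 reads. After irradiation 9 genes lie right of 0 in both replicates and Ifi27 lies at -0.19 and -0.17, while Tor3a without irradiation lies at -0.01 and 0.18.

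Mx1 and Mx2 lie on a chromosome whose genes as a whole were lower in KO. Over 448 tested genes of chromosome 16 the median log2 difference between KO and WT was -0.32 without irradiation and -0.36 after it, against -0.00 and -0.01 on the other chromosomes. The Mx genes differed in the opposite direction after irradiation, at 3.73 and 3.30. On the chromosomes of the other members (1, 3, 8, 11 and 12) this median lay between -0.16 and 0.00 in both comparisons. The part of these shifts in the members' differences was not tested.

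Per kilobase of merged exon, which allows levels to be set against each other between genes, the order of the 10 changed between groups. In non-irradiated WT, Bst2 (23.8 ± 0.427 CPM per kb, SD, n = 2) and Ifi27 (23 ± 4.08) stood first with overlapping libraries. Tor3a (9.57 ± 0.318) and Ifi35 (6.16 ± 1.52) came next, and the other 6 were at 0.354 or below. Within those 6, Mx1 lay below Xaf1 and above Rsad2 without overlap. From Rsad2 down through Cmpk2 and Ifi44 to Mx2, which had no reads, each gene overlapped the next.

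After irradiation WT kept Ifi27 (90.7 ± 0.502 CPM per kb) and Bst2 (81.6 ± 19.8) in front, overlapping, then Tor3a (17.2 ± 0.454) and Ifi35 (15.2 ± 1.46). The other 6 lay between 3.09 and 7.98 CPM per kb, and each overlapped its neighbour in the order Mx1, Xaf1, Rsad2, Cmpk2, Ifi44, Mx2. In irradiated KO the order was another. Bst2 stood alone at 430 ± 41.8 CPM per kb, followed by Rsad2 (123 ± 6.01), Mx1 (104 ± 4.07), Tor3a (91.7 ± 1.88) and Ifi27 (80 ± 0.472) with no overlap between neighbours. Cmpk2, Ifi44, Ifi35, Xaf1 and Mx2 came last, from 74.6 to 30.3 CPM per kb, and only Ifi44 and Ifi35 overlapped.

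**Figure D4:**
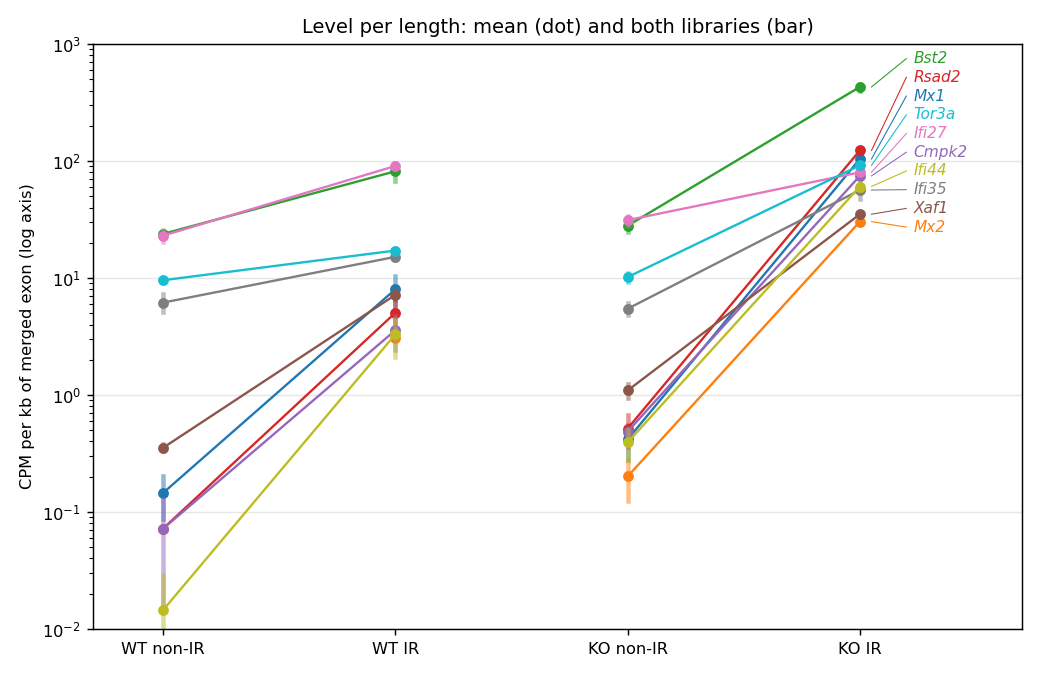
Level of each gene per kilobase of merged exon (CPM per kb, log axis) in the 4 groups, with dots for the mean of 2 libraries and bars for both libraries; lines join the groups of 1 line, the Ifi44 bar that meets the lower edge reaches a library with 0 reads, and Mx2 is not drawn in non-irradiated WT, where it had 0 reads. In WT the order keeps Bst2 and Ifi27 above the rest after irradiation, while in KO Rsad2, Mx1 and Tor3a come to lie above Ifi27.

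Across the 8 libraries the genes' log2 CPM followed one another closely. The Pearson correlation of each gene with the mean profile of the other 9 ran from 0.865 for Ifi27 and 0.916 for Tor3a to 0.996 for Mx1. The genes outside the 10 whose profile was most like their mean were Dhx58 (r = 0.9985), Parp14 (0.9982), Gbp7 (0.9981), Isg15 (0.9977) and Irf9 (0.9975). Dhx58 encodes an RNA helicase of the RIG-I family, Gbp7 a guanylate-binding protein and Isg15 a ubiquitin-like protein. The points are 8 libraries in 4 groups that share treatment and line, so these values describe a shared profile only.

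The genes that make and relay the interferon signal were taken from a list of 25, of which 22 were in the table and tested. In irradiated KO against irradiated WT 13 were called higher and 4 lower, against 13.3 and 11.4 percent of all tested genes. The ligand gene Ifnb1 had 4 and 4 reads in irradiated WT and 129 and 118 in irradiated KO, a log2 difference of 4.85 ± 0.57 (edgeR adjusted p = 0.000856). Ifna4 had no read in 6 libraries and 23 and 16 reads in irradiated KO. The factors Irf7 (3.59 ± 0.20), Stat2 (2.19 ± 0.08) and Irf9 (1.31 ± 0.11) and the feedback protease Usp18 (4.11 ± 0.25) were higher.

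Receptor genes went the other way or did not pass. Ifnar1, a chain of the type I receptor, was lower by -0.54 ± 0.07, and the interferon gamma receptor genes Ifngr2 and Ifngr1 by -1.22 ± 0.08 and -0.49 ± 0.09. The kinase gene Tyk2 was the other one lower, at -0.55 ± 0.07. Ifnar1 and Ifngr2 lie on chromosome 16, like the Mx genes. So do the receptor genes Ifnar2 (-0.15 ± 0.14) and Il10rb (-0.46 ± 0.19), which were not called, and Socs1 (1.10 ± 0.16), which was higher. The part of the chromosome in these differences was not tested. In the irradiation response 10 of the 22 were called higher and 2 lower in WT, against 20.4 and 18.4 percent of all tested genes. In KO 13 were higher and 1 lower, against 21.1 and 18.6 percent. The interaction was called higher for Stat2 (1.53 ± 0.11), Irf1 (1.15 ± 0.14), Irf5 (2.27 ± 0.31) and the inhibitor gene Socs1 (2.61 ± 0.24). Without irradiation 5 were higher in KO, among them Irf7 (2.27 ± 0.31) and Irf9 (0.82 ± 0.12), and 6 lower, among them Socs1 (-1.51 ± 0.17), against 10.4 and 9.49 percent.

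Relatives and partners of the members came from a list of 24, of which 23 were in the table and 21 tested. After irradiation 8 were called higher and 3 lower in each line, where 20.4 and 18.4 percent of all tested genes were in WT and 21.1 and 18.6 percent in KO. Between the irradiated lines 4 were higher in KO and 2 lower, against 13.3 and 11.4 percent, so the counts of 4 and 2 lie near the background. Those higher were Tor1aip1 (1.64 ± 0.08) and Tor1aip2 (1.19 ± 0.11), whose proteins activate torsins in human cells, Nmi (1.41 ± 0.15), the partner of Ifi35, and Ifi27l2a. Tor1aip1 had 129 and 135 CPM in irradiated WT and 404 and 414 CPM in irradiated KO, beside 68 and 65.5 and then 352 and 362 CPM for Tor3a. The other torsin genes, Tor1a, Tor1b, Tor2a and Tor4a, differed by 0.04, -0.18, 0.09 and -0.06, and none passed.

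Among the 5 dynamin genes Opa1 was lower (-0.32 ± 0.07), and Dnm1, Dnm1l and Dnm2 had differences of -0.14, -0.20 and 0.04 that did not pass. Opa1 and Dnm1l lie on chromosome 16, where the median of tested genes was -0.36, so Opa1 was near that median. Dnm3, at 1.11 and 1.57 CPM in irradiated WT and 3.18 and 3.4 CPM in irradiated KO, was at 2.46-fold (SE 0.41 on the log2 scale, edgeR adjusted p = 0.0546), which did not pass. It rose with irradiation in both lines, by 1.76 ± 0.48 in WT and 2.31 ± 0.44 in KO. Cmpk1, the cytosolic relative of Cmpk2, had 0.25 ± 0.17, and Xiap, the target of Xaf1, 0.05 ± 0.15. Tyms, which makes thymidylate, was lower (-0.48 ± 0.10). Ifi44l, the relative of Ifi44, had 1 read in all. The interaction was called higher for Tor1aip1 (1.35 ± 0.11, edgeR adjusted p = 0.00169), Tor1aip2 (0.96 ± 0.15, edgeR adjusted p = 0.0204) and Nmi (1.22 ± 0.22, edgeR adjusted p = 0.0404).

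**Figure D5:**
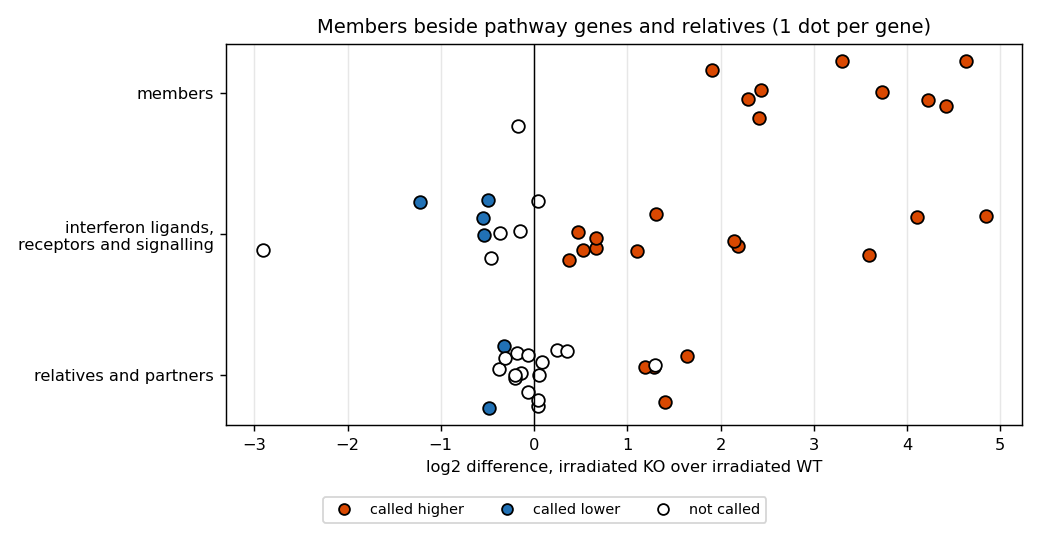
Log2 difference of irradiated KO over irradiated WT for the 10 members, 21 tested genes of interferon ligands, receptors and signalling, and 21 tested relatives and partners, with 1 dot per gene at a random height in its row; Ifna4, with 0 reads in WT, is left out. Filled dots passed the test (orange higher, blue lower): 9 of 10 members are orange, while most relatives are open and lie near 0.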

How the data were processed

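The authors deposited a table of whole-number counts per gene with no normalization. Per the submitters' processing notes, the tools were HISAT2, HISAT, HTSeq and DESeq2 (versions not listed) and the build mm10. No source used here states strand setting, annotation or the handling of multiply mapped reads. Symbols and positions came from GENCODE M21. The tests used edgeR 4.0.16 under R 4.3.3: filterByExpr (minimum count 10, minimum total 15), TMM scaling, 1 fit of all 8 libraries with 1 coefficient per group (4 residual degrees of freedom), two-sided quasi-likelihood F tests and Benjamini-Hochberg adjustment over 14923 genes. Calls are at an adjusted p under 0.05, and SE was derived from the F statistic. The procedure was tested on simulated data. CPM uses total counts. A count of 0 was taken to allow 3 counts. Since no label says that replicates are separate cultures, the p-values reflect spread among libraries that may be technical alone. Replicates differed by more than sampling noise (chi-square per degree of freedom 13.5 to 25.8).

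The labels number replicates 1 and 2 in every group. Differences between replicates 1 and 2 correlated at 0.496 to 0.589 over genes in all 6 pairs of groups, so the numbers were taken to pair libraries. Alternatives were DESeq2 1.42.0, its size factors, no filter, the replicate block, a fit of the compared groups alone and leaving out each library. Named genes were the 10 members, called genes of 2 lists (interferon signalling; relatives and partners), Piezo2, and the 5 genes most correlated with the members' mean profile. Members of those lists that were not called, the list genes placed on chromosome 16 and marker genes were named after their values were seen. A gene of the signalling list is not reported here and is left out of its counts. The members and lists were chosen with earlier results of these data known.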

Additional observations from a re-analysis of the deposited data

Results flagged for a closer look

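The irradiation response differed between the lines by the edgeR interaction test (KO minus WT, log2, Benjamini-Hochberg adjusted over all tested genes) for 3 members, namely Tor3a (2.35), Bst2 (2.20) and Ifi35 (2.06). Among the signalling genes it differed for Socs1 (2.61), Irf5 (2.27), Stat2 (1.53) and Irf1 (1.15). Among relatives and partners it differed for Tor1aip1 (1.35), Nmi (1.22) and Tor1aip2 (0.96). All 10 were larger in KO. Of all tested genes, 1.37 percent were called higher in the interaction and 0.57 percent lower. The Ifi35 call, unlike those of Tor3a and Bst2, did not hold in every alternative fit.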

How the results depend on the processing

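The 10 higher calls of each irradiation comparison and the 9 higher calls in irradiated KO held in every alternative fit run. Over the members, 596 of 639 single results kept direction and side of the threshold, 22 lost a call, 15 gained one and 6 changed sign, none of them called; over 30 listed genes the numbers were 1730 of 1915, 123, 33 and 29. For KO against WT without irradiation the 5 higher members became 8 with the replicate block, 7 without the filter on low counts (Mx1 at adjusted p = 0.00594 and Ifi27 at 0.00181 in edgeR), 6 with DESeq2 (Ifi27 at adjusted p = 0.0423), 3 with only the compared groups in the fit (Mx2 was not tested there) and 2 to 5 when 1 library was left out. The calls lost were those of Rsad2, Cmpk2 and Ifi44, and Cmpk2 ranged from 1.86 without non-irradiated WT replicate 2 to 4.77 without replicate 1. In the interaction the 3 higher and 0 lower members became 5 and 1 with the block, 5 and 1 without the filter on low counts (Mx1 and Rsad2 higher, Ifi27 lower), and 2 to 3 higher when 1 library was left out; DESeq2 added Rsad2 (adjusted p = 0.0422). With the block 1 member, Ifi27, was lower in irradiated KO. The block changed no other call of a member. The causes were not tested.

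All changes of sign came from leaving out 1 library, on values that had not passed. Without irradiation the log2 difference of KO then ran from -0.38 to 0.10 for Ifi35, -0.06 to 0.22 for Tor3a, -2.37 to 2.39 for Ifnb1, -0.20 to 0.03 for Ifngr1, -0.44 to 0.28 for Irf5, -0.05 to 1.18 for Dnm3, -0.10 to 0.14 for Birc2, -0.02 to 0.19 for Birc3 and -0.03 to 0.38 for Nmi. In the interaction it ran from -0.35 to 2.55 for Cmpk2, -3.94 to 0.64 for Ifi44, -0.02 to 0.07 for Irf3, -0.02 to 0.16 for Socs3 and for Ciao1, -0.06 to 0.14 for Dnm1l, -0.10 to 0.03 for Opa1 and -0.21 to 0.23 for Ifi27l2a. Ciao1 ran from -0.15 to 0.03 between the irradiated lines and Fdps from -0.26 to 0.18 with irradiation in WT.

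Over all tested genes the replicate block gave 4465 lower in WT after irradiation, 4417 lower in KO after irradiation, 3197 higher and 3504 lower for KO without irradiation, 3761 and 3755 for KO after irradiation, and 1216 and 1276 in the interaction. Without the filter the interaction had 359 higher and 219 lower, and a fit of the non-irradiated groups alone had 831 lower. With 1 library left out, calls ran from 2034 to 3014 higher and 1812 to 2754 lower in WT, 2072 to 3104 and 1832 to 2883 in KO, 788 to 1409 and 676 to 1139 for KO without irradiation, 1100 to 1887 and 792 to 1592 for KO after it, and 99 to 124 and 18 to 31 in the interaction. Among the 6 members with a promoter at hand, 2 held letters that match the response element core with 2 bases between. Of all promoters 3.44 percent held them. The form with 1 base between was added after the promoters had been seen. It was in 3 of the 6, and in 3.17 percent of all promoters. Such matches describe the sequence and are not evidence of binding. Depth limits the members with few reads in non-irradiated WT, Mx1, Mx2, Rsad2, Cmpk2 and Ifi44, whose interactions had SEs of 0.88 to 1.23.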
